A study of Mus musculus with 32 samples.

Results

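The comparison described here is loss of Myd88 through Tie2-Cre in population A of tumour-associated macrophages (TAMs), measured on 8 of the 32 arrays of the series. The members were the 8 Mouse Gene 2.0 ST arrays labelled as population A: 4 from hosts carrying Myd88flox/flox with tie2-Cre, 2 of them also TNFR1-/-, against 4 from hosts without these alleles, of which 2 were WT and 2 were TNFR1-/-. TNFR1 status entered the 4 against 4 comparison as a block. All hosts carried a transplanted EG7 tumour, an ovalbumin-expressing line derived from a mouse T-cell thymoma, so the tumour cells themselves kept their own Myd88. Population A was sorted by flow cytometry as CD11b+, Ly6G-, Ly6C+ and MHCII-, the gate of monocyte-like cells in the tumour; population C, sorted as CD11b+, Ly6C- and MHCII+, supplied another 8 arrays of the same chip and the same 4 genotypes. A further set of 10 arrays, from CD11b-enriched EG7 cells of germline Myd88-/- and WT hosts on another chip, is set beside the results. Host age and sex are not given in the labels, and no array came from hosts with the floxed allele alone or Cre alone. Nothing in the labels tells whether the 2 arrays of a genotype are separate animals, and a p-value here therefore reflects only how much these samples vary, which may be technical.

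MyD88 is a cytoplasmic adaptor: interleukin-1 and interleukin-18 receptors, and all but a few Toll-like receptors, pass their signal through it to the IRAK kinases, TRAF6 and, through them, to NF-kB. NF-kB activity is self-limiting, because the genes it switches on include its own inhibitors, among them the IkB proteins and A20. Tie2-Cre is active in endothelium and in haematopoietic cells, so the deletion in these hosts is not limited to macrophages. Within tumours, Ly6C+ monocytes mature into Ly6C- macrophages, a course during which complement C1q, phagocytic receptors and lysosomal and lipid-handling genes become more abundant.

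The values are log2 signals after robust multi-array averaging (RMA), as deposited, so a difference of 1 is a doubling of signal. Arrays have no read depth, and their number limits the precision. The 2 sorted populations differed from each other in the direction of their gates. Ly6c2 was 11.31 to 12.93 in population A and 7.88 to 9.99 in population C. H2-Aa was 8.77 to 11.61 in population A and 11.94 to 12.37 in population C. Although the gate of population A was MHCII- and Ly6G-, H2-Aa and Ly6g, the latter at 5.06 to 6.88, were above the detection filter in all 8 arrays. Ly6c1 was above the detection filter in 1 of the 8 population A arrays. The WT pair of population A was the least alike, with a correlation of 0.931 over probe sets against 0.957 to 0.980 for the other pairs, and WT replicate 1 had the lowest mean correlation with the other population A arrays, at 0.933. Arrays of 1 genotype also differed in transcripts of the sex chromosomes. Xist was 10.10 and 9.45 in WT, 5.36 and 5.29 in TNFR1-/-, 5.18 and 8.43 in Myd88-deleted, and 10.22 and 5.92 in Myd88-deleted TNFR1-/- hosts. The Y-linked Eif2s3y was 5.08 and 4.73, 6.64 and 6.76, 6.36 and 6.14, and 3.39 and 6.64 in the same order. Both transcripts were thus high together in Myd88-deleted replicate 2, and Xist alone was high in both WT arrays and in double-deficient replicate 1. With Xist signal as a further covariate, chosen after these values were seen, 0 genes passed in place of 10, while the differences of the 10 were nearly unmoved, with Myd88 at -1.79 and Fabp4 at 2.05; the part of the hosts' sex in the results was not tested beyond this.

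Myd88 itself and Nfkbiz, a nuclear regulator of NF-kB, fell in the deleted arrays, and 8 genes rose: Kcnma1, Atp6v0d2, Gpnmb, Fabp4, Il7r, Cd36, Gdpd1 and Ywhaq. Of 15135 genes tested, 10 passed limma's moderated test at a Benjamini-Hochberg adjusted p of 0.05, which is 0.0661% of the genes: 8 were higher, or 0.0529%, and 2 were lower, or 0.0132%. At an unadjusted p of 0.05 the count was 2317 genes, or 15.3%, of which 1665 were higher and 652 lower. In 1145 genes, 7.57%, the 4 deleted arrays lay wholly above (4.78%) or wholly below (2.79%) the 4 intact ones. The median difference over all genes tested was 0.02, with 8217 genes above zero and 6918 below. That median was -0.03 with no filter and 0.11 with a 60th percentile filter. Brighter genes thus leaned higher, and 0.02 is a low mark for lists of bright genes. The count of calls moved with the arrays in the fit: it was 778 genes, 5.14%, 711 higher and 67 lower, when all 16 sorted arrays shared 1 estimate of the spread, and all 10 genes were among them. In that fit the spread of population C also sets the error, and the 8 group means take differences by TNFR1 status out of it. Its calls, here and below, are therefore no separate support. The counts that follow are again of the 8-array comparison. Leaving out WT replicate 1 gave 4 genes, TNFR1-/- replicate 1 gave 18, Myd88-deleted replicate 1 gave 8 and Myd88-deleted TNFR1-/- replicate 2 gave 29; leaving out WT replicate 2, TNFR1-/- replicate 2, Myd88-deleted replicate 2 or Myd88-deleted TNFR1-/- replicate 1 gave 0.

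**Figure D1:**
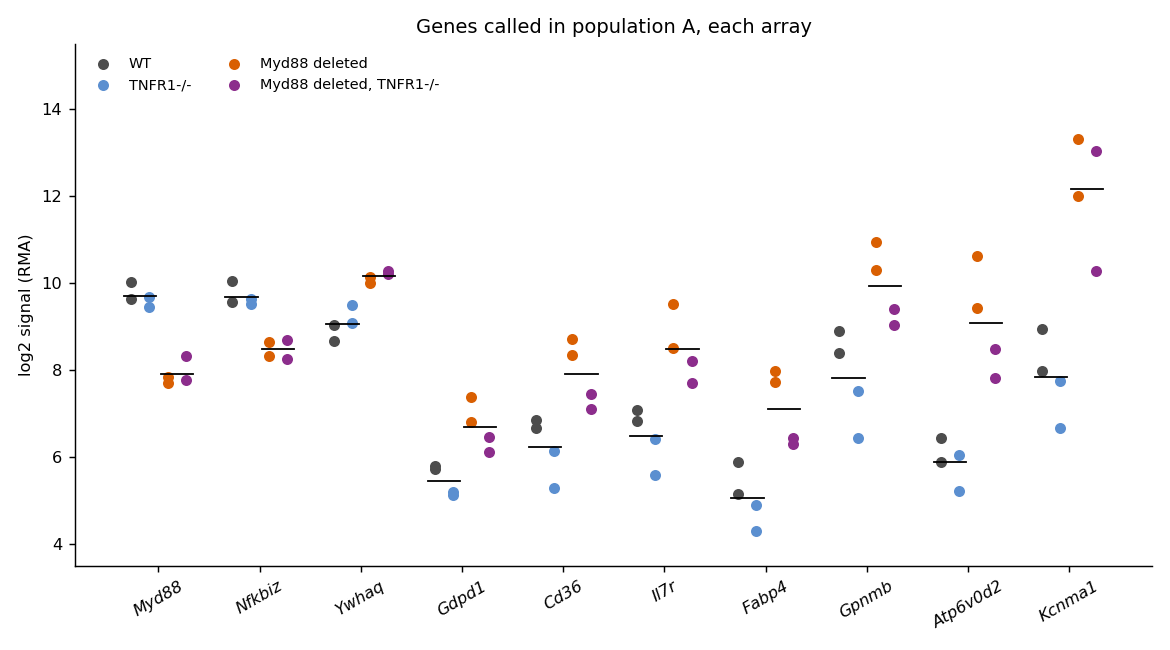
Log2 RMA signal (y axis) of the 10 genes that passed the test (x axis, ordered by difference) on each of the 8 population A arrays; points are arrays, coloured by host genotype, and horizontal lines are the means of the 4 intact and the 4 Myd88-deleted arrays. In every gene shown the 4 deleted arrays lie outside the range of the 4 intact arrays, below it for Myd88 and Nfkbiz and above it for the rest.

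Myd88 signal was 10.03 and 9.64 in WT hosts and 9.68 and 9.46 in TNFR1-/- hosts, against 7.84 and 7.70 in Myd88-deleted and 7.78 and 8.32 in Myd88-deleted TNFR1-/- hosts. The groups did not overlap, with means of 9.70 ± 0.24 and 7.91 ± 0.28 (SD, n = 4 arrays each). Myd88 fell by 1.79 on the log2 scale (SE 0.18, adjusted p = 0.0273, limma). The signal that remained was above the detection filter on all 4 deleted arrays, and the files do not show which exons the probe set reads. Tnfrsf1a, which encodes TNFR1, differed by 0.09 (SE 0.17) between Myd88-deleted and intact arrays. Its signal was 7.51 and 7.59 in TNFR1-/- hosts and 7.69 and 8.20 in the double-deficient hosts, against 8.30 and 8.09 in WT hosts, so this probe set showed no clear loss in TNFR1-deficient arrays. Tek, the gene whose promoter drives the Cre, was above the detection filter in 1 of the 8 arrays and was not tested.

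Nfkbiz encodes IkB-zeta, a nuclear IkB protein induced downstream of MyD88 that supports a second wave of NF-kB target genes. Its signal was 10.05 and 9.56 in WT and 9.51 and 9.64 in TNFR1-/- hosts, against 8.33 and 8.65 in Myd88-deleted and 8.26 and 8.70 in double-deficient hosts. The deleted arrays all lay below the intact ones, by a distance larger than the spread within either group. Nfkbiz fell by 1.21 (SE 0.16, adjusted p = 0.0446). It was also the gene, with Ywhaq, whose call was kept in the fewest of 20 alternative fits, 7, although its direction was the same in all 20.

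The larger family around Nfkbiz, the NF-kB subunits, targets and feedback inhibitors, had 29 members tested, of which 0 rose and 1, Nfkbiz, fell, against 0.0661% called among all genes. Differences were below zero for 23 of the 29, with a median of -0.15 against 0.02 over all genes, and 7 were lower and 1 higher at an unadjusted p of 0.05, where 4.31% and 11% of all genes stood. In 6 members the deleted arrays lay wholly below the intact ones, as they did in 2.79% of all genes. The members nearest to Nfkbiz were other feedback inhibitors, named here after their values were seen. Nfkbia, which encodes IkB-alpha, was 11.61, 10.82, 11.24 and 11.58 in the intact arrays and 10.38, 10.67, 9.71 and 10.58 in the deleted arrays, a difference of -0.98 (SE 0.25, adjusted p = 0.154). Tnfaip3, which encodes the ubiquitin-editing enzyme A20, was 10.36, 9.67, 10.22 and 10.73 in the intact and 9.20, 9.56, 9.49 and 9.51 in the deleted arrays, a difference of -0.81 (SE 0.19, adjusted p = 0.146). Nfkbid, which encodes the nuclear protein IkB-NS, was 9.65, 8.94, 9.34 and 10.06 in the intact and 8.51, 8.90, 8.71 and 8.76 in the deleted arrays, a difference of -0.78 (SE 0.21, adjusted p = 0.17). None of these 3 passed in the 8-array fit and their arrays did not overlap. In the limma fit to all 16 sorted arrays all 3 passed, with adjusted p of 0.0117, 0.0139 and 0.0324. There 4 members of the list were called lower and 1 higher, where 0.443% and 4.7% of all genes stood. The 1 higher was Slc7a2, a cationic amino acid transporter of macrophages, at 1.71 (SE 0.30, adjusted p = 0.101 in the 8-array fit).

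A promoter of each of these 3 inhibitors is printed because it holds a kappa B motif. The table has other start sites for Tnfaip3 and Nfkbid, whose windows did not hold the motif. The windows run 5′ to 3′ along the gene's strand from 250 bases before to 50 bases after the start, as RefSeq places it in GRCm38.p6, and capitals mark the motif GGGNNTTNCC, which was searched on both strands and in Nfkbia and Tnfaip3 reads on the opposite strand. Nfkbia lies at chr12:55492598-55492897 on the minus strand, Tnfaip3 at chr10:19015361-19015660 on the minus strand, and Nfkbid at chr7:30422156-30422455 on the plus strand.
Nfkbia: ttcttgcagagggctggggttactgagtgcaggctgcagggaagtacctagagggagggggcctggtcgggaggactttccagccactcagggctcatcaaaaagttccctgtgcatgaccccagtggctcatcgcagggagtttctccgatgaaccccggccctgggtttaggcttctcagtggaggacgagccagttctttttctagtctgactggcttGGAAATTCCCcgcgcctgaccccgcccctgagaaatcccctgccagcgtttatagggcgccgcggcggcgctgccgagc
Tnfaip3: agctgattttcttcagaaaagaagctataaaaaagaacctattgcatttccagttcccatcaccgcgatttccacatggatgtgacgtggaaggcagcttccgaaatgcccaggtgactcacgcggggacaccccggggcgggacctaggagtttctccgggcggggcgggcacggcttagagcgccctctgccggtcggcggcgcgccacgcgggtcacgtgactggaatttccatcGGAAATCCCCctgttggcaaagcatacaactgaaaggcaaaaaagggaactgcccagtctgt
Nfkbid: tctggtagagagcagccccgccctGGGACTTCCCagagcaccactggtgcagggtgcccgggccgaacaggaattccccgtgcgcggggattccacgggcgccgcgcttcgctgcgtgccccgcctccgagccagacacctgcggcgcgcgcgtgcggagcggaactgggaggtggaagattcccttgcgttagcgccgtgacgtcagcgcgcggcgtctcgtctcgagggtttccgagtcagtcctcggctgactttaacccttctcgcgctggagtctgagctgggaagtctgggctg
Counted along the gene from the start, the first base of the match lay at -29 in Nfkbia, -12 in Tnfaip3 and -226 in Nfkbid. Among the genes tested, 718 of 11821 with a promoter in the table held it, or 6.07%. Of the tested NF-kB list it was found in 8 of 24, or 33.3%. Of genes called lower in the 16-array fit it was found in 7 of 45, or 15.6%, and of those called higher in 36 of 558, or 6.45%. Neither Myd88 nor any of the 6 called higher genes with a promoter in the table held it. Nfkbiz had no promoter in the table and was not searched. A match is a description of the letters in the window and not a binding site.

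Of the genes that rose, Fabp4 and Cd36 belong to the lipid handling list. Fabp4, a fatty acid carrier of adipocytes and macrophages, was 5.15, 5.88, 4.91 and 4.30 in the intact arrays and 7.73 and 7.99 in Myd88-deleted and 6.30 and 6.44 in double-deficient arrays. It rose by 2.05 (SE 0.21, adjusted p = 0.0273). Cd36, a scavenger receptor for oxidised lipoprotein and long-chain fatty acids, was 6.85, 6.68, 6.13 and 5.28 in the intact arrays and 8.35, 8.72, 7.45 and 7.11 in the deleted arrays. It rose by 1.67 (SE 0.19, adjusted p = 0.0355). In both genes the double-deficient arrays stood between the Myd88-deleted arrays and the intact ones.

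Atp6v0d2, a subunit of the lysosomal proton pump typical of osteoclasts and some macrophages, was 6.43, 5.89, 6.04 and 5.22 in the intact arrays and 9.42, 10.62, 8.48 and 7.83 in the deleted arrays. It rose by 3.19 (SE 0.36, adjusted p = 0.0355). Gpnmb, a transmembrane glycoprotein of lysosome-rich and lipid-laden macrophages, was 8.90, 8.40, 7.51 and 6.45 in the intact arrays and 10.30, 10.95, 9.41 and 9.04 in the deleted arrays. It rose by 2.11 (SE 0.25, adjusted p = 0.0365). For Gpnmb the highest intact array, WT replicate 1, lay only just below the lowest deleted array, while the Atp6v0d2 groups stood well apart.

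Il7r, the interleukin-7 receptor alpha chain known best from lymphocytes, was 6.84, 7.09, 6.42 and 5.60 in the intact arrays and 8.50, 9.53, 8.21 and 7.70 in the deleted arrays. It rose by 2.00 (SE 0.25, adjusted p = 0.0412). Il7r is on the T lymphocyte and EG7 list, and Cd3e of the T-cell receptor complex was 7.32, 7.16, 6.21 and 5.95 in the intact, 6.98 and 7.46 in the Myd88-deleted and 8.55 and 8.64 in the double-deficient arrays. Both genes were lowest in the TNFR1-/- arrays and higher in the double-deficient arrays, whereas between WT and Myd88-deleted arrays Il7r was higher and Cd3e overlapped; the part of T-lineage cells in the Il7r difference was not tested. Gdpd1, a phosphodiesterase of lysophospholipids, was 5.72, 5.80, 5.19 and 5.14 in the intact and 6.80, 7.39, 6.47 and 6.11 in the deleted arrays, and rose by 1.23 (SE 0.15, adjusted p = 0.0412).

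The calls of Kcnma1 and Ywhaq rest on probe sets that other probe sets of the same gene did not bear out. Kcnma1, the pore subunit of the large-conductance calcium-activated potassium channel, was 8.95, 7.97, 7.75 and 6.67 in the intact arrays and 13.31, 12.01, 13.04 and 10.29 in the deleted arrays. Its difference of 4.33 (SE 0.56, adjusted p = 0.0412) was the largest among the called genes, and the other Kcnma1 probe set, dimmer at a mean of 5.28, differed by -0.26. Ywhaq, a 14-3-3 protein, was 8.66, 9.03, 9.09 and 9.50 in the intact arrays and 10.01, 10.14, 10.29 and 10.22 in the deleted arrays. Its difference was 1.09 (SE 0.14, adjusted p = 0.0412), and its other 3 probe sets differed by 0.00, 0.36 and 0.22. Which transcripts each of these probe sets reads was not examined.

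Below the threshold, the next genes in the higher direction by p were Ndufb9 and Hadh, both of mitochondrial metabolism, at 0.92 (SE 0.13) and 1.14 (SE 0.16) with an adjusted p of 0.0598 each. They were followed by Folr2, a folate receptor of resident macrophages, at 1.86 (SE 0.27), and the importin Kpna3 at 0.92 (SE 0.13), each with an adjusted p of 0.0648. In the lower direction the next was Tagap, a GTPase-activating protein of leukocytes, at -0.76 (SE 0.11, adjusted p = 0.0648). It was 10.01, 10, 10.15 and 10.43 in the intact arrays and 9.19, 9.37, 9.48 and 9.53 in the deleted arrays, which did not overlap. The remaining 9 named genes in that direction had adjusted p of 0.101 to 0.135 and included small nucleolar RNAs (Snora74a, Snora73b), odorant and pheromone receptors (Olfr988, Olfr1501, Vmn1r193) and Pate14, Krtap6-1, Igkv4-70 and Scgb2b23-ps.

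The 10 called genes differed in the same direction within each TNFR1 background. This was fixed in advance, because their deleted and intact arrays, the same 8 that called them, did not overlap. In the 4-group fit of the same 8 arrays, Kcnma1 differed by 4.20 (SE 0.83) between Myd88-deleted and WT hosts and by 4.46 (SE 0.83) between double-deficient and TNFR1-/- hosts. Gpnmb differed by 1.98 and 2.25 (SE 0.37 each), Cd36 by 1.77 and 1.58 (SE 0.28 each) and Nfkbiz by -1.32 and -1.09 (SE 0.23 each). Atp6v0d2 differed by 3.86 in TNFR1-intact and 2.53 in TNFR1-/- hosts (SE 0.43 each), and Folr2 by 2.52 and 1.20 (SE 0.24 each).

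**Figure D2:**
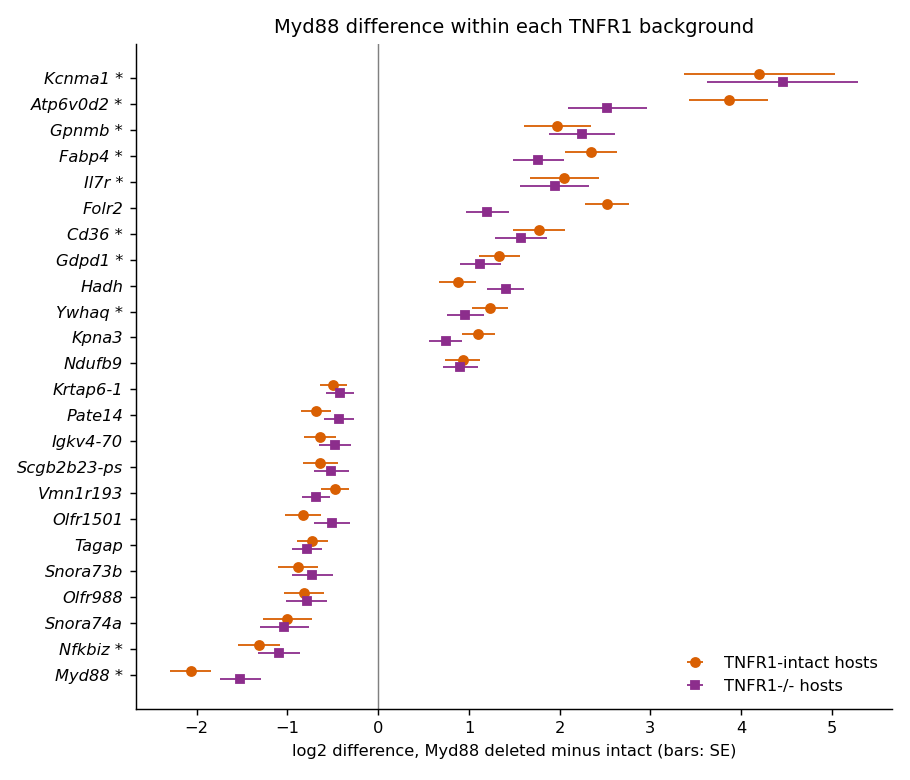
Log2 difference between Myd88-deleted and Myd88-intact arrays (x axis, with SE from the 4-group fit) for the 24 genes of smallest p or largest called difference in population A (y axis), in TNFR1-intact hosts (circles) and in TNFR1-/- hosts (squares), 2 arrays against 2 in each; an asterisk marks genes that passed in the 8-array comparison. All 24 genes have the same sign in both backgrounds, from Myd88 at -2.07 and -1.52 to Kcnma1 at 4.20 and 4.46. The genes were chosen on these same arrays, so the shared sign is no separate test.

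Across all 15135 genes the differences in the TNFR1-intact and TNFR1-/- hosts, which share no array, had the same sign in 61% of genes and correlated at r = 0.265; genes are not independent replicates and the arrays share their processing. Of 367 genes that differed by 1 or more in TNFR1-intact hosts, 240 had the same sign in TNFR1-/- hosts, or 65.4%. In TNFR1-intact hosts alone 11 genes passed, 0.0727% of those tested, with 10 higher (0.0661%) and Myd88 alone lower (0.00661%). Of these, 3, Myd88, Fabp4 and Atp6v0d2, were among the 10 of the 8-array comparison. The others were: Folr2, Igf1, Ms4a7, Ccl8, Ctsk, Chil3, Itgax and F7. Ccl8, a monocyte-attracting chemokine, was 5.98 and 6.72 in WT and 10.07 and 10.13 in Myd88-deleted hosts, a rise of 3.75 (SE 0.43, adjusted p = 0.0363). In TNFR1-/- hosts it was 7.56 and 6.45 without and 9.22 and 8.20 with the Myd88 deletion, a difference of 1.71 (SE 0.43, adjusted p = 0.279). Chil3, the chitinase-like protein Ym1, rose by 1.96 (SE 0.20, adjusted p = 0.0325) in TNFR1-intact hosts and differed by 0.65 (SE 0.20, adjusted p = 0.398) in TNFR1-/- hosts.

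In TNFR1-/- hosts alone 3 genes passed, 0.0198% of those tested, and 0 of them were shared with the TNFR1-intact hosts: Cd3g, Cd3e and Trav9d-3, parts of the T-cell receptor and its signalling complex. Cd3e was 7.32 and 7.16 in WT, 6.98 and 7.46 in Myd88-deleted, 6.21 and 5.95 in TNFR1-/- and 8.55 and 8.64 in double-deficient arrays. Cd3g was 6.44 and 6.93, 6.46 and 7.02, 5.54 and 5.61, and 8.39 and 8.49 in the same order. For both genes the TNFR1-/- arrays were the lowest of the 8 and the double-deficient arrays the highest. Cd3g rose by 2.87 (SE 0.23) and Cd3e by 2.52 (SE 0.20) in TNFR1-/- hosts, each with an adjusted p of 0.00561, whereas in TNFR1-intact hosts they differed by 0.06 (SE 0.23) and -0.02 (SE 0.20). Trav9d-3, a T-cell receptor alpha variable segment, has 4 further probe sets on the chip, which differed by -0.48 to -0.02 between deleted and intact arrays, against 1.42 for the chosen one.

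The test of whether the Myd88 difference itself depended on TNFR1 status called 0 of 15135 genes in limma, with 929 genes, 6.14%, at an unadjusted p under 0.05. The smallest p belonged to Trav9d-3, with a difference of differences of 4.06 (SE 0.40, adjusted p = 0.0695), and to Cd3e and Cd3g, at 2.54 (SE 0.29) and 2.81 (SE 0.33) with an adjusted p of 0.101 each. Leaving out double-deficient replicate 2 brought the count to 10, of which 9 were negative. Ccl8, Chil3 and Folr2, larger in TNFR1-intact hosts by the values above, had adjusted p of 0.796, 0.614 and 0.729 in this test.

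Mature macrophage markers had 25 members tested, of which 1, Gpnmb, rose and 0 fell, where 0.0529% of all genes were called higher. Differences were above zero for 21, with a median of 0.65 against 0.02 over all genes, and 15 were higher at an unadjusted p of 0.05, where 11% of all genes stood. In the 16-array fit 12 of the 25 were called higher, against 4.7% of all genes. Among the complement C1q genes, C1qc was 6.22, 5.72, 6.79 and 5.40 in the intact arrays, 8.41 and 9.07 in Myd88-deleted and 7.14 and 7.16 in double-deficient arrays, a difference of 1.91 (SE 0.40, adjusted p = 0.130). C1qb differed by 1.76 (SE 0.33, adjusted p = 0.107) and C1qa by 1.40 (SE 0.36, adjusted p = 0.154). Mertk, a receptor for the uptake of apoptotic cells, differed by 1.14 (SE 0.25, adjusted p = 0.131), and Adgre1, which encodes F4/80, by 0.47 (SE 0.34, adjusted p = 0.531). The 4 members below zero were Fcgr1 at -0.47 (SE 0.30), Timd4 at -0.15 (SE 0.12), Slco2b1 at -0.02 (SE 0.13) and Csf1r at -0.02 (SE 0.25). The mean of the whole list was 6.83 to 7.46 in the intact arrays, 7.58 to 8.67 in the deleted arrays and 8.85 to 9.29 in population C, so the deleted arrays stood between both.

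Monocyte markers had 21 members tested, of which 0 passed in either direction; 16 had differences below zero and the median was -0.30. Plac8 differed by -0.75 (SE 0.23, adjusted p = 0.199), Ly6c2 by -0.44 (SE 0.16, adjusted p = 0.256) and Ccr2, the chemokine receptor that brings monocytes out of the marrow, by -0.52 (SE 0.34, adjusted p = 0.488). Of the 5 above zero, Chil3 differed by 1.30 (SE 0.25, adjusted p = 0.113) and Fn1, fibronectin, by 0.48 (SE 0.30, adjusted p = 0.474), and Ms4a8a, Spn and F13a1 by 0.05 to 0.10. MHC class II presentation had 14 members tested with 0 called and a median of 0.23, and H2-Aa and H2-Eb1 differed by 0.82 (SE 0.38) and 0.87 (SE 0.37). In these bulk samples a change in the share of cells of a type and a change in RNA per cell cannot be told apart.

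**Figure D3:**
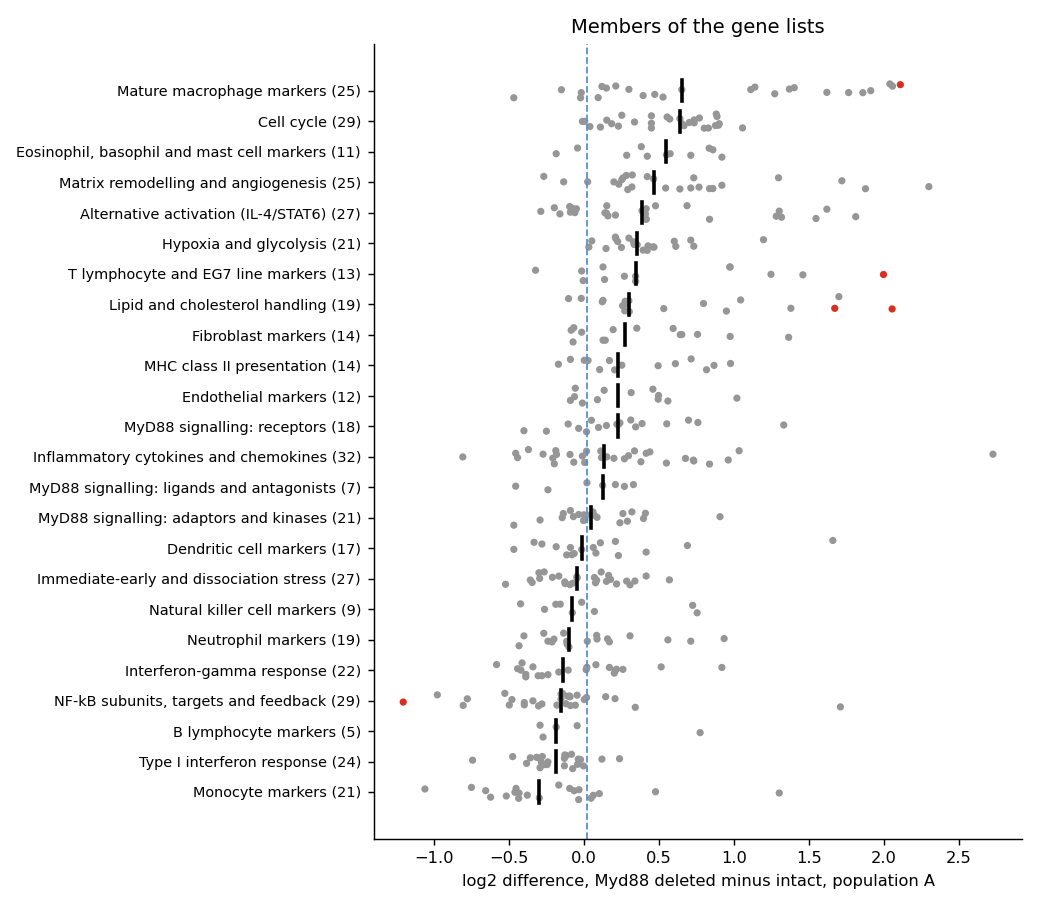
Log2 difference between Myd88-deleted and intact arrays of population A (x axis) for the tested members of 24 gene lists (y axis, number tested in brackets); grey points did not pass the test, red points did, black bars are list medians and the dashed line is the median of all genes tested, 0.02. Medians run from -0.30 for monocyte markers to 0.65 for mature macrophage markers.

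Lipid and cholesterol handling had 19 members tested, of which 2, Fabp4 and Cd36, rose and 0 fell, where 0.0529% of all genes were called higher. Differences were above zero for 17, against 8217 of all 15135 genes, with a median of 0.30. Fabp5, a second fatty acid carrier, differed by 1.70 (SE 0.33, adjusted p = 0.113) and Lipa, the lysosomal lipase, by 1.38 (SE 0.27, adjusted p = 0.113). In the 16-array fit 5 members were called higher, against 4.7% of all genes. Matrix remodelling and angiogenesis had 25 members tested with 0 called and a median of 0.47. At an unadjusted p of 0.05, 12 of the 25 were higher, where 11% of all genes stood. Mmp12, macrophage elastase, was 7.23, 6.42, 6.67 and 5.16 in the intact and 9.22, 9.55, 8.47 and 7.44 in the deleted arrays, a difference of 2.30 (SE 0.36, adjusted p = 0.0715). The lysosomal proteases Ctsl and Ctsk differed by 1.72 (SE 0.26, adjusted p = 0.0648) and 1.88 (SE 0.34, adjusted p = 0.101).

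The alternative activation list, genes induced by interleukin-4 through STAT6, had 27 members tested with 0 called and a median of 0.39. At an unadjusted p of 0.05, 7 of the 27 were higher, where 11% of all genes stood. Arg1, the arginine-degrading enzyme of such macrophages, was 8.22, 7.27, 8.37 and 6.97 in the intact arrays and 9.69, 9.98, 9.03 and 8.32 in the deleted arrays, a difference of 1.55 (SE 0.37, adjusted p = 0.147) with overlapping groups. Retnla differed by 1.81 (SE 0.58, adjusted p = 0.215).

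The upstream parts of the pathway showed no called member, where 0.0661% of all genes were called. That was 0 of 18 receptors, 0 of 7 ligands and antagonists and 0 of 21 adaptors and kinases other than MyD88 itself. At an unadjusted p of 0.05, 5 receptors and 4 adaptors and kinases were higher and 0 lower, where 11% and 4.31% of all genes stood. In the 16-array fit Ly96 and Hsp90b1, 1 member of each of these 2 lists, were called higher, against 4.7% of all genes. Ly96, the MD-2 co-receptor of TLR4, differed by 0.76 (SE 0.22, adjusted p = 0.184), Tlr4 by 0.31 (SE 0.20) and Tlr2 by -0.25 (SE 0.23). Hsp90b1, a chaperone that Toll-like receptors need to fold, differed by 0.91 (SE 0.19, adjusted p = 0.124), and Traf6 by 0.41 (SE 0.11, adjusted p = 0.169). Il1b, 10.90 to 11.98 in the intact and 10.26 to 11.68 in the deleted arrays, differed by -0.46 (SE 0.30, adjusted p = 0.483).

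Among 32 inflammatory cytokines and chemokines tested 0 passed, 20 had differences above and 12 below zero, and the median was 0.14. Ccl8 had the smallest p, at 2.73 (SE 0.44, adjusted p = 0.0784) with separate groups, and Tnf was at -0.81 (SE 0.36, adjusted p = 0.323), with overlapping groups. The type I interferon response had 24 members tested with 0 called and 22 below zero, with a median of -0.19. Rtp4 differed by -0.36 (SE 0.13, adjusted p = 0.261, limma). At an unadjusted p of 0.05, 4 of the 24 were lower, where 4.31% of all genes stood. The interferon-gamma response had 22 tested with 0 called and a median of -0.14; Irf1 differed by -0.58 (SE 0.16, adjusted p = 0.174) and Nos2 by 0.92 (SE 0.28, adjusted p = 0.197).

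Cell cycle genes were higher in 28 of 29 by sign. At an unadjusted p of 0.05, 20 of the 29 were higher, where 11% of all genes stood, yet 0 passed after adjustment. The median was 0.64. Ccnb2, a mitotic cyclin, was 6.88, 6.85, 6.81 and 6.66 in the intact and 7.30, 7.83, 7.80 and 7.80 in the deleted arrays, a difference of 0.88 (SE 0.15, adjusted p = 0.0797) with separate groups. Rrm1, a subunit of ribonucleotide reductase, differed by 1.06 (SE 0.23, adjusted p = 0.131) and Mki67 by 0.77 (SE 0.18, adjusted p = 0.147). In TNFR1-intact and TNFR1-/- hosts Ccnb2 differed by 0.70 and 1.065 (SE 0.20 each), and Rrm1 by 0.56 and 1.555 (SE 0.24 each). In the 16-array fit 19 of the 29 were called higher, against 4.7% of all genes.

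Markers of T lymphocytes and of the EG7 line moved over the arrays beside the cell cycle list. The mean of the 30 cell cycle genes on the chip was 6.20 and 6.05 in WT, 5.87 and 5.77 in TNFR1-/-, 6.12 and 6.44 in Myd88-deleted and 6.71 and 6.72 in double-deficient arrays. The mean of the 16 T lymphocyte and EG7 markers was 6.22 and 6.08, 5.68 and 5.56, 5.95 and 6.34, and 6.60 and 6.59 in the same order. In both lists the WT and Myd88-deleted arrays overlapped. Both lists were lowest in the TNFR1-/- arrays and highest in the double-deficient arrays. Of the 13 T lymphocyte and EG7 markers tested 1, Il7r, rose, where 0.0529% of all genes were called higher. Differences were above zero for 10, against 8217 of all 15135 genes, and the median was 0.35. The part of T-lineage or tumour cells in the cell cycle values was not tested.

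Signals of marker lists of other cell types also varied between arrays, which does not show that such cells were present. The eosinophil, basophil and mast cell list had 11 members tested with 0 called and a median of 0.55, and its mean was 5.53 to 6.61 in the intact, 6.10 to 6.78 in the deleted and at most 5.27 in population C arrays. Siglecf, an eosinophil marker that some tissue macrophages share, ranged from 7 to 10.26 in population A and up to 6.24 in population C. The eosinophil markers Epx and Prg2 were 5.40 to 6.05 and 5.74 to 8.51 in population A. The fibroblast list, with 14 tested and 0 called, had means of 5.79 and 5.81 in TNFR1-/- arrays and 6.25 to 6.69 in the other 6, and the endothelial list, with 12 tested and 0 called, had means of 5.91 and 6.08 in Myd88-deleted arrays and 5.30 to 5.75 in the rest. The neutrophil list had 19 tested with 0 called and means of 6.17 to 6.39 in intact and 6.11 to 6.47 in deleted arrays, and Camp was above the detection filter in 0 arrays. Of natural killer markers 9 were tested, of B lymphocyte markers 5 and of dendritic cell markers 17, with 0 called in each; Eomes and Cd79a were above the filter in 0 arrays. No red blood cell transcript passed the filter. The part of these cells in the called differences was not tested.

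**Figure D4:**
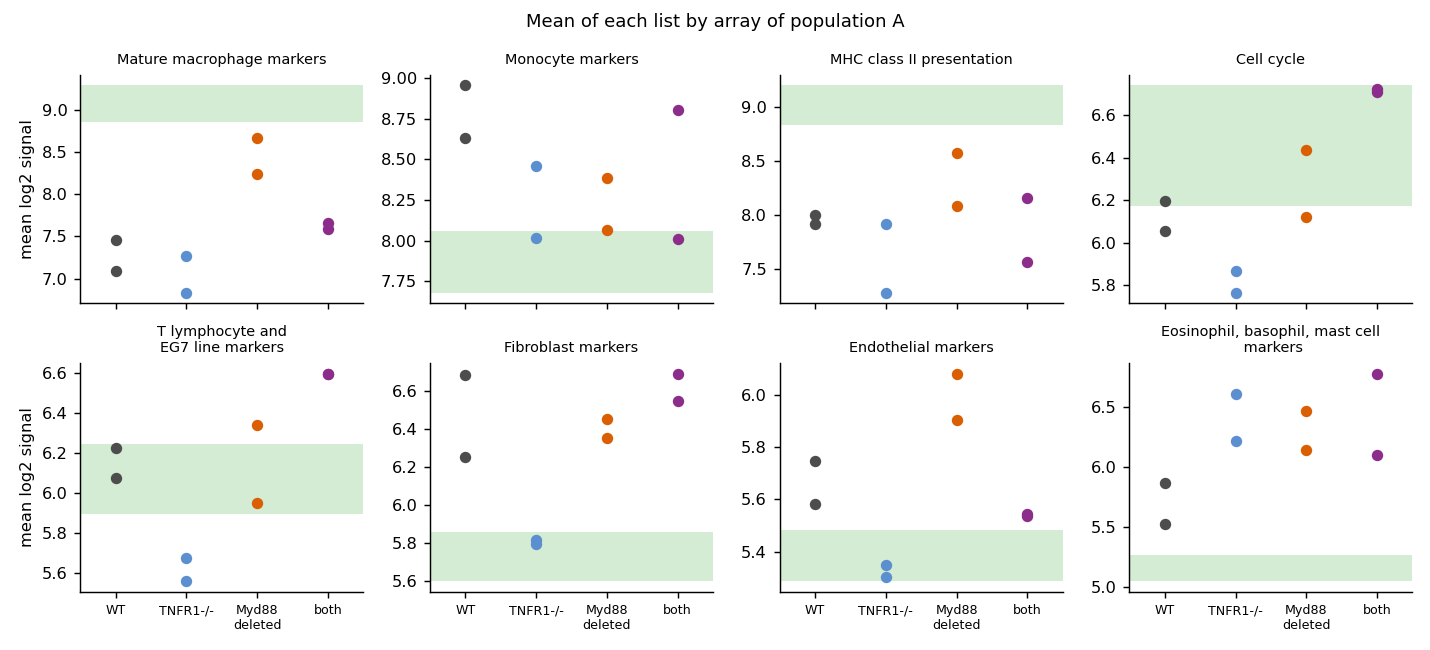
Mean log2 signal (y axes, which do not start at 0) of 8 gene lists over all members on the chip, on each of the 8 population A arrays by host genotype (x axis; "both" is Myd88-deleted and TNFR1-/-); points are arrays, and the green band is the range of the 8 population C arrays. Mature macrophage markers lie at 7.58 to 8.67 in the deleted arrays, above all intact arrays and below the population C band.

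In population C the same comparison called 29 of 15193 genes, 0.191%, with 17 higher (0.112%) and 12 lower (0.079%). It shared 2 genes with population A, Myd88 and Kcnma1, which is 20% of the population A list and 6.9% of the population C list. Myd88 was lower by almost the same amount in both, with differences of -1.79 in A and -1.76 (SE 0.18, adjusted p = 0.00335) in C. Kcnma1 rose by 3.22 in C (SE 0.58, adjusted p = 0.0489), and Nfkbiz differed by -1.13 (SE 0.21, adjusted p = 0.0530). Of the other genes that rose in A, none passed in C. Atp6v0d2 had a mean of 5.89 in intact and 9.09 in deleted arrays of A, and of 9.16 and 10.38 in C, where it differed by 1.22 (SE 0.29, adjusted p = 0.149). Fabp4 differed by 0.60 (SE 0.31, adjusted p = 0.635) in C. By their means, the intact arrays of C lay above the deleted arrays of A for Gpnmb, Il7r, Cd36, Atp6v0d2, Fabp4 and Gdpd1. They lay below them for Kcnma1 and Ywhaq. Fabp4 had a mean of 7.115 in deleted arrays of A and 7.605 in intact arrays of C, and Gdpd1 of 6.69 and 7.54. Gpnmb had a mean of 7.82 in intact and 9.93 in deleted arrays of A, and of 10.57 and 10.68 in C. Il7r had means of 6.49 and 8.48 in A and of 9.78 and 9.90 in C, and Cd36 of 6.24 and 7.91 in A and of 8.83 and 9.12 in C.

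**Figure D5:**
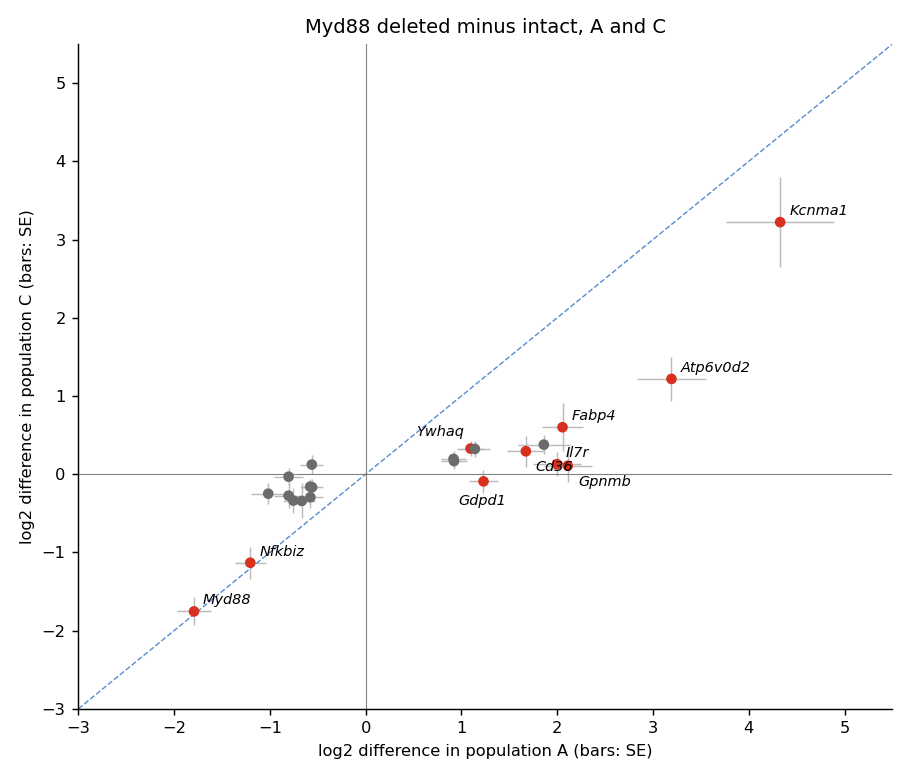
Log2 difference between Myd88-deleted and intact arrays in population A (x axis) and population C (y axis), each with its SE from an 8-array fit, for the genes of smallest p or largest called difference in A that were tested in C; red points passed in A, grey did not, and the dashed line marks equal differences. Myd88 and Nfkbiz lie near the line, while Gpnmb, Il7r and Gdpd1 lie at 2.11, 2.00 and 1.23 in A and at 0.11, 0.13 and -0.09 in C.

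The test of the difference between populations, in 1 fit of all 16 arrays, called 0 of 15902 genes in limma, and 1483 genes, 9.33%, were at an unadjusted p under 0.05. The smallest p were those of Ms4a7, Folr2 and Cdh5, each with an adjusted p of 0.0632. Ms4a7, a membrane protein of tissue macrophages, was 7.10, 6.42, 6.56 and 5.79 in the intact arrays of A and 9.34, 9.76, 7.70 and 7.23 in the deleted arrays, and the difference of differences was 2.04 (SE 0.29). Its signal in C was 9.45 to 10.95 and differed there by less than its SE of 0.16. Folr2 had a difference of differences of 1.48 (SE 0.22). Cdh5, the adhesion molecule VE-cadherin of endothelium, was 8.04 and 7.84 in Myd88-deleted arrays of A and 5.15 to 6.69 in the other 6, and 5.37 to 5.79 in C. Of the 12 endothelial markers tested in A, 8 had differences above zero and 4 below, among the latter Kdr at -0.06 (SE 0.16). For Gpnmb, Il7r and Gdpd1 the adjusted p were 0.128, 0.104 and 0.104. The count depended on single arrays, reaching 7 without WT replicate 1, 8 without WT replicate 2, 15 without TNFR1-/- replicate 1, 9 without Myd88-deleted replicate 1 and 3 without double-deficient replicate 2. Across 14792 genes tested in both populations, which share no array, 58.5% had the same sign. Of 94 genes that differed by 1 or more in A, 81 had the same sign in C, or 86.2%.

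In CD11b-enriched cells of germline Myd88-/- hosts, 176 of 11916 genes passed against WT, 1.48%, with 31 higher and 145 lower. Of the 8 genes called in A that were tested on that chip, 2 were also called there, Myd88 and Nfkbiz, which is 25% of the A list and 1.26% of the germline list. Nfkbiz was lower by 1.21 in A and fell by 1.73 (SE 0.12, adjusted p = 6.59e-06) in the germline set. Germline Myd88 signal fell by 0.75 (SE 0.10, adjusted p = 0.00174), on another chip whose probes differ. Tagap fell by 0.75 there (SE 0.12, adjusted p = 0.00658), where A had -0.76 without passing. Of the genes tested on both chips, 657 were called in the 16-array fit, and 12 of these were shared with the germline list. That is 1.83% of the 657 and 7.55% of the germline list. Of all 9699 genes tested on both chips, 1.64% were called in the germline set and 6.77% in the 16-array fit. With both directions pooled, the number shared was near that background. The lists leaned opposite ways, however, with 711 higher and 67 lower among all genes of the 16-array fit and mostly falls in the germline set. No background was computed for each direction. The 12 had the same sign in both sets, with Nfkbiz, Nfkbia, Nfkbid, Tnfaip3 and Tagap among the lower and Mfge8, a bridge for the uptake of apoptotic cells, among the higher.

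Apart from Nfkbiz, the genes with the largest falls in the germline set that were tested in A did not pass there. Il23a, a subunit of interleukin-23, fell by 4.27 (SE 0.15) there and was 5.35 to 5.83 in the intact and deleted arrays of A alike, a difference of -0.09 (SE 0.12). Cxcl13 fell by 2.53 (SE 0.26) there and differed by 0.30 (SE 0.14) in A. Gpr84, a receptor for medium-chain fatty acids, fell by 1.56 (SE 0.14) there. In A it was 8.06 and 7.90 in WT, 7.24 and 7.55 in Myd88-deleted, 5.46 and 5.52 in TNFR1-/- and 6.43 and 7.09 in double-deficient arrays. Its difference of 0.34 (SE 0.34) over both backgrounds thus joined -0.58 (SE 0.23, adjusted p = 0.304) in TNFR1-intact hosts, the direction of the germline set, and 1.27 (SE 0.23, adjusted p = 0.122) in TNFR1-/- hosts; the difference of differences was 1.86 (SE 0.33, adjusted p = 0.608). Marco, Slc13a3 and Mrgpra2b differed by -0.14 each in A, where Marco was likewise dim at 5.35 to 6.18. Csf3 and Il1f9 passed the detection level in fewer than 4 of the 8 arrays of A and were not tested; Il1f9 was highest in the Myd88-deleted arrays, at 5.47 and 5.60, against 4.52 to 5.12 in the other 6. The NF-kB list had 19 of 28 members called lower in the germline set, with a median of -0.63, where 1.22% of all genes were called lower, against 1 of 29 and -0.15 in A. The cytokine and chemokine list had 15 of 32 called lower with a median of -0.49, against 0 of 32 and 0.14 in A. Mature macrophage markers had 0 of 22 called and a median of 0.04 there, against 0.65 in A. Sorted and bead-enriched cells, the deletion and the chip all differ between these sets and cannot be told apart, and the difference between the sets was not tested. The counts of calls are also not of like power. The germline set had 5 arrays per group and called 1.48% of its genes, against 0.0661% in A.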

How the data were processed

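The series holds 32 arrays of mouse tumour macrophages; the 8 population A arrays on Mouse Gene 2.0 ST were analysed, with 8 population C arrays and 10 HT_MG-430_PM arrays beside them. Per the labels, total RNA was extracted with Trizol and 100 ng was labelled per array. The authors deposited log2 values per probe set. The submitters' processing notes name RMA and Affymetrix Expression Console 1.1. The set of arrays that shared a normalization is not stated in the labels, and RMA can narrow differences of dim probe sets. Of 41345 probe sets, 23521 had 1 gene symbol in the platform table, 1814 several and 16010 none; only the first were used, and 23328 were matched to GRCm38.p6 by Entrez identifier. Each of 22180 genes took its brightest probe set over the 16 sorted arrays.

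Genes above the array's 40th percentile in at least 4 of 8 arrays were tested with limma 3.58.1 in R 4.3.3 (lmFit, eBayes, two-sided), with Myd88 deletion and TNFR1 status as terms and 5 residual degrees of freedom, and called at a Benjamini-Hochberg adjusted p under 0.05. Differences by TNFR1 status came from 4 group means, those between populations from 8 group means over 16 arrays, and the germline comparison from 5 arrays against 5. The method was tested on simulated data. No gene set test was run: lists are given as counts and medians. The comparison, the gene lists and the alternatives were chosen with earlier results of these data known. Named genes were Myd88, Tnfrsf1a and Tek, up to 12 genes per direction (called and not overlapping by size, then by p), up to 4 called or else 2 genes of smallest p per list, 3 per test of a difference, and the 10 largest falls and 5 largest rises of the germline set; predicted genes were only counted. Not every gene so chosen is described, and a few more, chosen after their values were seen, are named with their lists. Promoters came from RefSeq (GRCm38.p6), 11821 of 15135 tested genes having one. Labels give each genotype replicate numbers 1 and 2; deviations of same-numbered arrays correlated at -0.528 to 0.398 between genotypes, so the numbers were not taken to pair arrays. Alternatives varied the arrays, the TNFR1 and replicate terms, the filter, the probe set rule, the normalization, the variance model and array weights.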

Additional observations from a re-analysis of the deposited data

Results flagged for a closer look

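In 2 of 52 gene and group combinations checked, a single array lay far from the other 3 of its group; chance gives about 1 in 20. Kpna3 was 8.90 in Myd88-deleted replicate 2, against 8.61 to 8.64 in the other deleted arrays. Olfr1501 was 5.87 in double-deficient replicate 2, against 5.58 to 5.61 in the other deleted arrays.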

How the results depend on the processing

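All 10 called genes kept their direction in the 20 alternative fits of the 4 against 4 comparison; their calls were kept in 7 (Nfkbiz, Ywhaq) to 14 (Myd88) of them. The count of 10 became 778 with all 16 sorted arrays in the fit, 1210 with array weights and 36 with 4 group means, and 6 with the mean of a gene's probe sets, 1 without the TNFR1 term and 0 with Xist signal as a covariate, the last chosen after seeing the data. With the replicate block, on numbers that do not pair the arrays, 1 gene was called in the main comparison. Quantile normalization called 11 genes, 6 higher and 5 lower, in place of 8 and 2, and median centring 8 and 1. Leaving out 1 array gave 0 to 29 genes in the main comparison, 0 to 10 for the difference by TNFR1 status and 0 to 15 for that between populations; a genotype left with 1 array is assumed to vary like the others. Quantile normalization called 1 gene for the difference by TNFR1 status. Directions turned for genes near zero: Tnfrsf1a was -0.16 under quantile normalization and -0.076 to 0.191 when 1 array was left out, negative without double-deficient replicate 2; Slc13a3 was 0.0463 with array weights; Mrgpra2b was -0.313 to 0.031 when 1 array was left out, positive without WT replicate 2. Signals near the detection filter give compressed differences. The causes of these moves were not tested.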

Other observations

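Genes of hypoxia and glycolysis had differences above zero in all 21 members tested in population A, with a median of 0.36, and 0 of them passed the test. Among all genes tested, 8217 of 15135 were above zero, and the median was 0.11 over those that passed the 60th percentile filter. P4ha1, a collagen prolyl hydroxylase, was 7.49, 7.25, 7.43 and 7.28 in the intact and 7.84, 8.33, 8.13 and 8.00 in the deleted arrays, a difference of 0.71 (SE 0.14, adjusted p = 0.113, limma). Egln3, an oxygen sensor of the HIF pathway, differed by 1.20 (SE 0.29, adjusted p = 0.153) with overlapping groups. In population C the median of this list was -0.09 over 22 members.

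Of 137 tested genes within 10 Mb of Myd88, which flanking sequence of the targeted allele could carry, 0 passed, and their median difference was 0.04. Lztfl1 differed by 1.09 (SE 0.26, adjusted p = 0.152) and Crtap by 0.55 (SE 0.15, adjusted p = 0.167). Immediate-early and dissociation stress genes had 27 members tested with 0 called and a median of -0.05, and their mean was 9.39 to 9.95 in the intact and 9.56 to 9.72 in the deleted arrays.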
